A study of Mus musculus with 7 samples.

Results

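The 10 genes described here are a ligand, receptors and feedback genes of fibroblast growth factor (FGF) signalling: the ligand Fgf2, the receptors Fgfr1 and Fgfr4, the inhibitors Spry1, Spry2, Spry4, Spred1 and Dusp6, and the transcription factors Etv4 and Etv5. They were taken by name, through the Ensembl identifiers of the count files, out of 56748 genes counted in each library. No rule on how they changed was used, but earlier results of these data were known when they were chosen. Of the 10 genes, 9 had enough reads to be tested and Fgf2 did not.

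FGF ligands bind receptor tyrosine kinases together with heparan sulfate, and the receptors activate the RAS, RAF, MEK and ERK cascade. ERK activity induces its own brakes: Sprouty and SPRED proteins act on the RAS and RAF steps, and DUSP6 removes phosphate from ERK. It also induces the ETS transcription factors ETV4 and ETV5. In muscle, FGF2 keeps myoblasts dividing and delays their differentiation, Fgfr1 and Fgfr4 are the main FGF receptors of satellite cells and myoblasts, and Spry1 is known for its role in satellite cell quiescence.

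The study sequenced full-length cDNA from cultured MuSCs on the Nanopore platform, with 3 WT libraries and 4 libraries of homozygous Jag2sm mice, a line with a hypomorphic missense allele of the NOTCH ligand gene Jag2. The labels write the mutant genotype as Jag2-/-, although Jag2 transcripts were present in all 4 mutant libraries. MuSCs came from hindlimb muscles of adult mice, were depleted of cells carrying CD31, CD45 or Sca1, selected for Integrin α7, and grown on collagen in medium with 20% FBS and 20 ng/ml basic FGF. Basic FGF is the FGF2 protein, so the cells of both genotypes received this ligand from the medium. The labels do not say that each library came from a separate mouse, and the p-values therefore measure the spread between these libraries.

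The libraries held 187834 reads on genes (WT replicate 1) to 1937581 (Jag2sm replicate 3), and WT replicate 1 also stood apart with 45.1% of its aligned reads on no gene, against 20.8% to 25.7% in the others. Reads not aligned made up 46.0% to 50.8% in Jag2sm replicates 1, 2 and 4 and 2.44% to 3.24% in the other 4 libraries. Jag2 itself had 80.7, 114 and 116 normalized counts on a scale common to all libraries (CPM, from the counts and TMM-scaled library sizes) in WT replicates 1 to 3 and 42.4, 78.8, 71.9 and 77.4 CPM in Jag2sm replicates 1 to 4, with every mutant library below every WT library (log2 fold change -0.64 ± 0.243 (SE), edgeR adjusted p = 0.166). Of 10 MuSC and myoblast markers 9 had reads, Pax7, Myf5 and Myod1 among them, and Msc had none. Their sum was 3353 to 5868 CPM in WT and 2168 to 2636 CPM in Jag2sm. Des alone gave 1807 to 4600 CPM of it in WT and 706 to 1103 CPM in Jag2sm, and was the 1 marker of the 8 tested that was called, lower. Of these 8, 4 had positive and 4 negative log2 fold changes, with a median of 0.07, and Pax7 had 0.80 (edgeR adjusted p = 0.174). Endothelial markers summed to 2.45 to 14.1 CPM over all 7 libraries and immune markers to 0 to 4.08 CPM and fibro-adipogenic markers to 0 to 44.9 CPM, with Kdr, Ptprc, Adgre1, Cd3e, Lum and Dpt at 0 in every library. The 12 genes of differentiated muscle summed to 17385 to 34932 CPM in WT and 673 to 4424 CPM in Jag2sm, and 10 of the 10 tested were lower in Jag2sm. In bulk RNA, fewer cells of a type and less RNA per cell cannot be told apart.

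Across all 9489 genes tested with edgeR, 6.26% passed an adjusted p of 0.05 between the genotypes, with 4.84% lower and 1.42% higher in Jag2sm. The 135 higher calls fell to 20, 33 and 30 without WT replicate 3, WT replicate 2 and Jag2sm replicate 2, and were 220 without Jag2sm replicate 3. Among the 9 tested genes of the set, 0 passed, with 5 positive and 4 negative log2 fold changes and a median of 0.05, beside a median of 0.05 over all genes tested. The median of the 9 moved with the setting, to 0.30 without WT replicate 1, -0.07 without Jag2sm replicate 2, 0.20 with library size alone and 0.52 with at least 10 counts in every library, which left 6 of them. At an unadjusted p under 0.05, 2 of the 9 passed, Fgfr4 and Spry4, both with lower levels in Jag2sm, against 1873 of all 9489 genes. Summed over the 10 genes, the level was 616 to 651 CPM in WT and 590 to 719 CPM in Jag2sm, so the genotypes overlapped. With 3 and 4 libraries the precision was limited: in counts simulated on these libraries over 9214 genes, the same test recovered 37% of genes changed 2-fold and 99% of genes changed 4-fold. The changed genes were drawn from those with a mean above 20 CPM, and all genes were given the same dispersion. Recovery for genes of lower level, such as Spry1 at 19.9 CPM, or of larger spread between libraries is not covered.

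**Figure D1:**
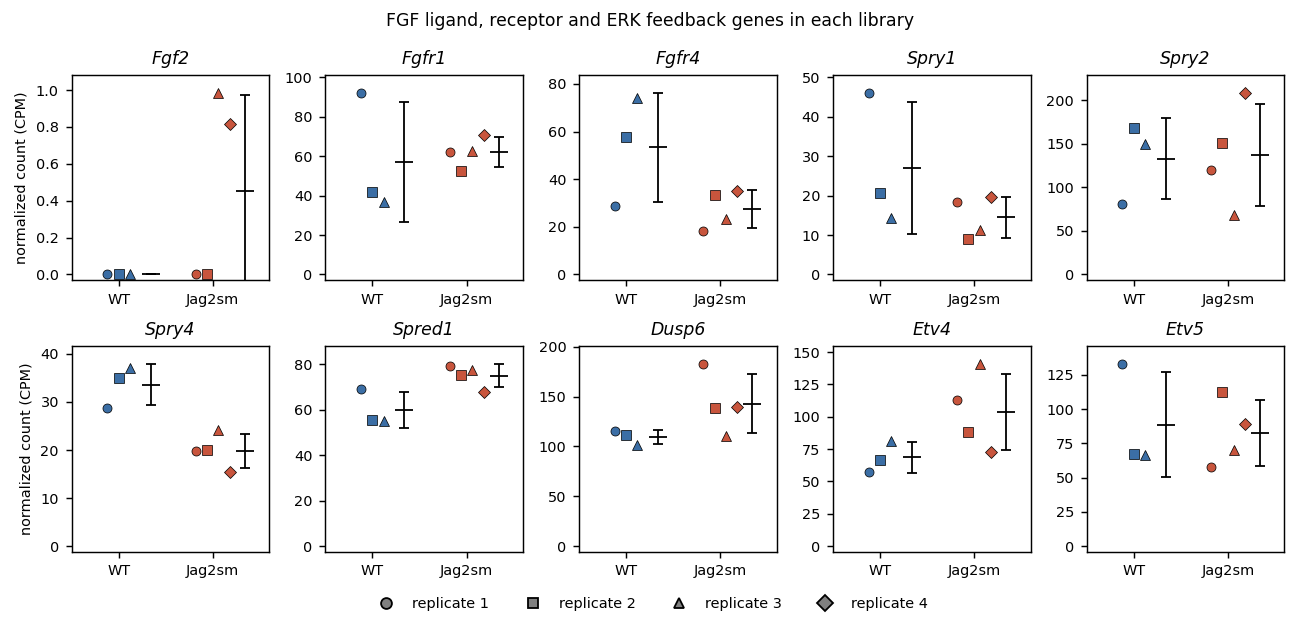
Normalized counts (CPM, linear axis) of the 10 genes in each of the 3 WT and 4 Jag2sm libraries; each point is a library, its shape gives the replicate number, and the bar shows the mean with the SD of the group. The Spry4 points of Jag2sm all lie below those of WT, Fgfr4 overlaps through WT replicate 1 alone, and Fgf2 is at 0 in WT.

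Sequence upstream of the start is shown for 2 ERK-induced genes whose RefSeq promoter window (GRCm38.p6, 250 bases before to 50 after the start) holds the letters TGAATG, the core bound by Capicua, a repressor that ERK activity relieves. Windows were found for 7 of the 10 genes (8 windows, with 2 starts for Etv5). The search covered both strands for TGAATG, for TGGGAA, which RBP-J, the DNA-binding partner of NOTCH, recognizes, and for CATTCC, the M-CAT element of TEAD factors. Of all 32851 windows of this length, 12.7% held TGAATG, 25.6% TGGGAA and 14.7% CATTCC. In the lines below, capitals mark any of these letters on either strand. The Dusp6 stretch is chr10:99262981-99263230 on the + strand, and the Etv5 stretch is chr16:22438369-22438618 on the - strand.
Dusp6: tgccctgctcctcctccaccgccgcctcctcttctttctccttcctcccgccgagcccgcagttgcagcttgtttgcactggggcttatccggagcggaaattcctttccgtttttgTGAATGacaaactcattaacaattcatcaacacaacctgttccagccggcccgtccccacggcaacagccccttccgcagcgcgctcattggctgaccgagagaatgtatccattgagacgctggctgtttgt
Etv5: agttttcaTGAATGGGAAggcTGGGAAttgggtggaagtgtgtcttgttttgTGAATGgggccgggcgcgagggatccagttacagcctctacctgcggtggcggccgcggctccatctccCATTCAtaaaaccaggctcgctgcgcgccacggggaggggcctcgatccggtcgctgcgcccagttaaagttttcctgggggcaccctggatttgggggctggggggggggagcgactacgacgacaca
Dusp6 held TGAATG 1 time, from 133 bases before the start. Etv5 held it 2 times, from 242 and 198 bases before the start, and 1 time on the other strand, from 129 bases before the start. The first of these Etv5 matches overlaps a TGGGAA from 238 bases before the start, and a further TGGGAA begins 229 bases before it. The other Etv5 window held none of the 3 motifs.
CATTCC was found in 2 windows, once reversed in Spry1, from 208 bases before the start, and once in Fgfr4, at base 3 after the start, shown here because Fgfr4 had the largest difference of the set (chr13:55152812-55152833, + strand, capitals mark CATTCC).
Fgfr4: tgcagggaCATTCCtggctctt
The windows of Fgf2, Spry2 and Spred1 held none of the 3 motifs, and Fgfr1, Spry4 and Etv4 had no window. These matches describe letters only; no binding was measured.

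Fgf2 (ENSMUSG00000037225, GRCm39 chr3:37402473-37464257, + strand) encodes the ligand that was supplied in the medium. It had 0 reads in all 3 WT libraries, of 3004053 reads on genes, which allows up to 1.08 CPM, a limit set at 3 counts over the group that covers counting error only. In Jag2sm it had 0, 0, 2 and 1 reads in replicates 1 to 4, 3 of 5254162 reads. Fgf2 transcripts were thus at or under 3 reads in each group, and a difference was not detectable at this depth. Exons of Nudt6 on the opposite strand and of Gm43439 on the same strand overlap those of Fgf2, and the strand setting of the counting is not given in the sources used here.

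Fgfr4 (ENSMUSG00000005320, chr13:55300352-55316572, + strand) encodes an FGF receptor of myoblasts and regenerating muscle. Its level was 28.8, 57.5 and 74.0 CPM in WT replicates 1 to 3 and 18.4, 33.2, 23.2 and 35.1 CPM in Jag2sm replicates 1 to 4. WT replicates 2 and 3 lay above every Jag2sm library, while WT replicate 1, where the value rests on 5 reads, lay within the range of Jag2sm. The mean was 53.4 ± 22.9 CPM in WT and 27.4 ± 7.98 CPM in Jag2sm (SD, n = 3 and 4), a log2 fold change of -1.07 (95% interval -1.75 to -0.39). This was the largest difference of the 9 genes and missed the threshold (edgeR adjusted p = 0.0681). The exact permutation test of 3 against 4 libraries, which cannot go below 0.0286, gave p = 0.143 (two-sided).

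The call on Fgfr4 depended on the setting. Without WT replicate 1 the log2 fold change was -1.24 (edgeR adjusted p = 0.0307). It was also past the threshold with limma-voom (-1.12, adjusted p = 0.0481) and with no filter on low counts (-1.05, edgeR adjusted p = 0.0101). In the other 10 of 13 alternatives it was not, with adjusted p up to 0.313, and the direction was negative in all 13. The summed level of the differentiated muscle genes was also lower in all 4 Jag2sm libraries, and its part in the Fgfr4 level was not tested.

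Fgfr1 (ENSMUSG00000031565, chr8:26003670-26066824, + strand), the other main FGF receptor of these cells, had 92.2, 42.0 and 37.0 CPM in WT and 62.2, 52.5, 62.6 and 70.9 CPM in Jag2sm. WT replicate 1 was the highest library of all and the other 2 WT libraries were the lowest. The log2 fold change was 0.35 with a 95% interval of -0.30 to 1.00 (edgeR adjusted p = 0.563). It was 0.63, 0.18 and 0.09 without WT replicates 1, 2 and 3 in turn (adjusted p = 0.106, 0.850 and 0.953).

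Because both receptors were counted in the same library, their balance does not depend on normalization. Fgfr4 made up 57.8% (95% Wilson interval 49.9% to 65.3%) and 66.7% (57.7% to 74.6%) of the reads of both receptors in WT replicates 2 and 3. In WT replicate 1 the share was 23.8% of 21 reads (10.6% to 45.1%). In Jag2sm replicates 1 to 4 it was 22.8% (13.8% to 35.2%), 38.7% (30.6% to 47.5%), 27.0% (21.0% to 34.1%) and 33.1% (25.6% to 41.5%). The 2 deeper WT libraries therefore held more Fgfr4 than Fgfr1 reads and all 4 Jag2sm libraries held fewer, with WT replicate 1 on the side of Jag2sm. These intervals cover counting error only, and this share was chosen with the values known.

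Spry4 (ENSMUSG00000024427, chr18:38719300-38736025, - strand), a Sprouty inhibitor of RAS-ERK signalling, was the 1 tested gene of the set whose genotypes did not overlap. It had 28.8, 34.9 and 37.0 CPM in WT and 19.8, 20.0, 24.1 and 15.5 CPM in Jag2sm, and every Jag2sm library lay below every WT library. Of all genes tested, 22.5% showed such non-overlapping libraries in one direction or the other, against this 1 of 9. The mean was 33.6 ± 4.24 CPM in WT and 19.9 ± 3.54 CPM in Jag2sm (SD), and the log2 fold change was -0.79 (95% interval -1.34 to -0.24; edgeR adjusted p = 0.0928; exact permutation p = 0.0286, the smallest possible). The adjusted p stayed between 0.0702 and 0.311 in 13 alternatives, all with a negative direction. The share of unaligned reads was also higher in 3 of the 4 Jag2sm libraries, and its part in the Spry4 level was not tested.

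Spry1 (ENSMUSG00000037211, chr3:37693897-37698755, + strand) had 46.1, 20.7 and 14.2 CPM in WT and 18.4, 8.98, 11.3 and 19.6 CPM in Jag2sm. The groups overlapped, and the WT mean was raised by replicate 1, where 8 reads gave the highest value. The log2 fold change was -0.62 (95% interval -1.56 to 0.33; edgeR adjusted p = 0.473). It was -0.35 without WT replicate 1 and -0.98 without WT replicate 3 (adjusted p = 0.673 and 0.357), and -0.91 with the replicate block (adjusted p = 0.264).

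Spry2 (ENSMUSG00000022114, chr14:106128766-106136446, - strand) had the most reads of the Sprouty genes, with 80.7, 169 and 150 CPM in WT and 120, 151, 68.5 and 209 CPM in Jag2sm. Both the lowest and the highest library were Jag2sm, and the spread within each group exceeded the difference of the means. Its log2 fold change was -0.03 (95% interval -0.82 to 0.76; edgeR adjusted p = 0.986) and was positive in 7 of 14 alternatives. This interval holds the estimates of Spry1 and Spry4, and a difference between the 3 Sprouty genes was not tested.

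Spred1 (ENSMUSG00000027351, chr2:116951524-117018277, + strand), a membrane-bound inhibitor that works with neurofibromin on RAS, had 69.2, 55.6 and 55.0 CPM in WT and 79.2, 75.3, 77.4 and 67.7 CPM in Jag2sm. WT replicate 1 lay above the lowest Jag2sm library and the other WT libraries below all of them. The log2 fold change was 0.37 (95% interval -0.05 to 0.79; edgeR adjusted p = 0.316; exact permutation p = 0.0857). The 4 Jag2sm libraries were close together, with an SD of 5.07 CPM around 74.9 CPM.

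Dusp6 (ENSMUSG00000019960, chr10:99086564-99103361, + strand), the ERK phosphatase, had 115, 111 and 101 CPM in WT and 182, 139, 111 and 139 CPM in Jag2sm. The WT libraries had an SD of 7.09 CPM around 109 CPM, and 1 Jag2sm library fell within the WT range. The log2 fold change was 0.39 (95% interval -0.10 to 0.88; edgeR adjusted p = 0.367; exact permutation p = 0.114). The highest value came from Jag2sm replicate 1, which also had 686 CPM summed over 5 mural cell markers, against 51.9 to 86.4 CPM in the other 6 libraries. In that library Rgs5 gave 645 CPM of the sum and Notch3 41.0 CPM, and Kcnj8, Abcc9 and Myh11 were at 0. The paper reports Notch3 expression in MuSCs too, so its reads are not specific to mural cells. Of these markers 3 were tested, with Abcc9 lower in Jag2sm and Rgs5 and Notch3 not called. Abcc9 had 38 reads in WT and 6 in Jag2sm. It was tested through the WT libraries alone, so its direction was partly set by the filter. The part of these markers in the Dusp6 level was not tested. Without Jag2sm replicate 1 the log2 fold change of Dusp6 was 0.26 (edgeR adjusted p = 0.562).

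Etv4 (ENSMUSG00000017724, chr11:101660568-101676197, - strand), an ETS factor induced by ERK, had 57.6, 66.6 and 81.6 CPM in WT and 113, 88.4, 140 and 72.6 CPM in Jag2sm. Of the Jag2sm libraries 3 lay above all WT libraries and replicate 4 lay among them. The log2 fold change of 0.56 was the largest positive one of the set, with a 95% interval of -0.03 to 1.14 (edgeR adjusted p = 0.279; exact permutation p = 0.114).

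Etv5 (ENSMUSG00000013089, chr16:22200052-22259662, - strand), its close relative, had 133, 67.2 and 66.4 CPM in WT and 58.0, 113, 70.5 and 88.9 CPM in Jag2sm. WT replicate 1 was the highest and Jag2sm replicate 1 the lowest of all 7 libraries. The log2 fold change was 0.05 (95% interval -0.62 to 0.72; edgeR adjusted p = 0.966) and was negative in 4 of 14 alternatives. Exons of Spry1, Spry2, Dusp6, Etv4, Etv5 and Fgfr1 overlap predicted opposite-strand genes in the annotation, while those of Fgfr4, Spry4 and Spred1 overlap none.

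Divided by the length of the longest annotated transcript, Dusp6 had the highest level in both genotypes, 38.3 CPM per kb in WT and 50.1 CPM per kb in Jag2sm. In WT it was followed by Spry2 (34.1 CPM per kb), Etv4 (28.1), Etv5 (17.2), Fgfr4 (13.2), Spred1 (9.42), Fgfr1 (9.29), Spry1 (7.61) and Spry4 (5.61). Each of these neighbours overlapped the next over the 3 WT libraries, so these ranges do not resolve the order of adjacent genes, and Spry4 lay apart from Fgf2 at 0. In Jag2sm the mean level per kb of Fgfr4 was 6.79, below Spred1 (11.8) and Fgfr1 (10.1), which it exceeded in WT. The longest transcript need not be the one these cells use, which limits comparisons between genes.

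The labels give each library a batch number, and batches 1 to 3 each hold 1 library of each genotype while batch 4 holds Jag2sm alone. Fgfr4, Spry1 and Spry4 were lower in Jag2sm in all 3 batches. These differences reuse the libraries of the fit, and for Spry4, whose genotypes did not overlap, their sign was fixed in advance. The share of all genes with the same sign in all 3 batches was not counted. For Fgfr4 the log2 CPM difference was -0.60, -0.76 and -1.61, and for Spry4 it was -0.51, -0.75 and -0.58. Spred1, Dusp6 and Etv4 were higher in Jag2sm in all 3, with Etv4 at 0.95, 0.40 and 0.77. Fgfr1, Spry2 and Etv5 differed in sign between batches. With 1 library of each genotype there is no test within a batch. Over all genes tested, the 2 libraries of a batch showed little shared deviation from their group means (r = 0.0740, 0.0144 and 0.0539). With the batch number as a replicate block, 0 of the 9 genes passed, as without it.

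**Figure D2:**
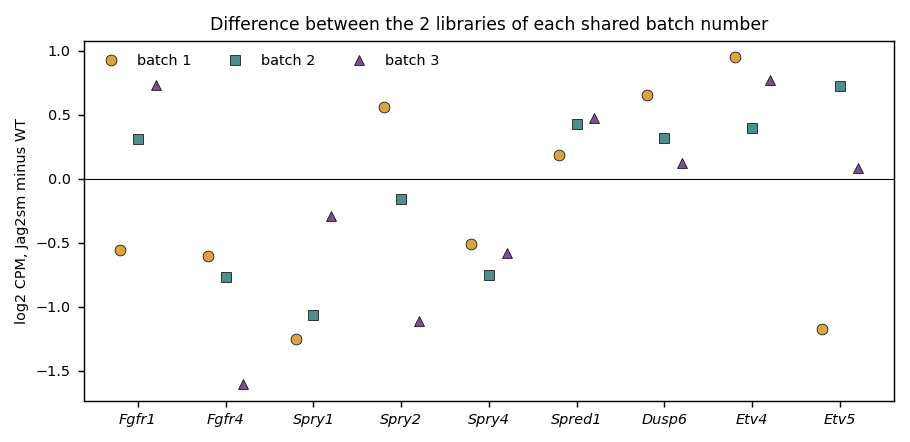
Difference in log2 CPM, Jag2sm minus WT, for the 9 tested genes in each of the 3 batches that hold a library of both genotypes; each point is 1 pair of libraries and the horizontal line marks no difference. All 3 points lie below the line for Fgfr4, Spry1 and Spry4 and above it for Spred1, Dusp6 and Etv4.

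Over the 7 libraries, the genes with log2 CPM most like Fgfr4 were Peg10 (Pearson r = 0.98), C1galt1 (r = 0.97) and Parm1 (r = 0.97), and those most like Spry4 were Nol3 (r = 0.97), Tspan9 (r = 0.96) and Cyb5d2 (r = 0.95). These are the highest of 9489 tested genes over libraries that share their genotype difference, and are given as a description. Within the set, Fgfr4 and Spry4 had r = 0.65 and Fgfr4 and Spred1 had r = -0.95 over the same 7 libraries. These are the highest and the lowest value of all pairs of its tested genes, and are likewise given as a description.

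Of 22 genes in the FGF ligand list, some of them intracellular homologues, 5 were tested. Of the 5, 2 were lower in Jag2sm and 0 were higher, against 4.84% and 1.42% of all genes tested. All 5 had negative log2 fold changes with a median of -1.61, while 54.0% of all genes tested were positive. Fgf5 and Fgf9 had enough reads to be tested through the WT libraries alone, so their negative sign was partly set by the filter. Fgf21, an endocrine FGF that muscle releases under metabolic stress, fell from 121, 222 and 211 CPM in WT to 12.7, 12.4, 3.45 and 30.2 CPM in Jag2sm. Every Jag2sm library was below every WT library (log2 fold change -3.76 ± 0.493 (SE), edgeR adjusted p = 0.00316), and the call held in 13 of 13 alternatives. Fgf5, known for ending the growth phase of hair, had 17.3, 11.0 and 15.2 CPM in WT and 2.83, 2.76, 0.49 and 2.45 CPM in Jag2sm, from 36 and 10 reads in all (log2 fold change -2.75 ± 0.536 (SE), edgeR adjusted p = 0.0140). Its adjusted p was 0.0532 without WT replicate 2 and 0.0929 without WT replicate 3.

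Fgf13 and Fgf11 encode intracellular FGF homologues that do not act as classical receptor ligands, and Fgf9 a secreted one. Their means were 37.4, 21.6 and 12.4 CPM in WT and 11.3, 10.1 and 3.90 CPM in Jag2sm, with non-overlapping libraries, as in 22.5% of all genes tested, and adjusted p of 0.0622, 0.156 and 0.188 by edgeR. Summed over the 22 genes of the ligand list the level was 294 to 309 CPM in WT and 34.5 to 103 CPM in Jag2sm, with Fgf21 alone giving 121 to 222 CPM in WT. The differentiated muscle genes moved in the same direction between the genotypes, and their part in the ligand levels was not tested. Klb and Kl, the co-receptors that FGF21-type hormones need, had 0 reads in all 7 libraries.

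**Figure D3:**
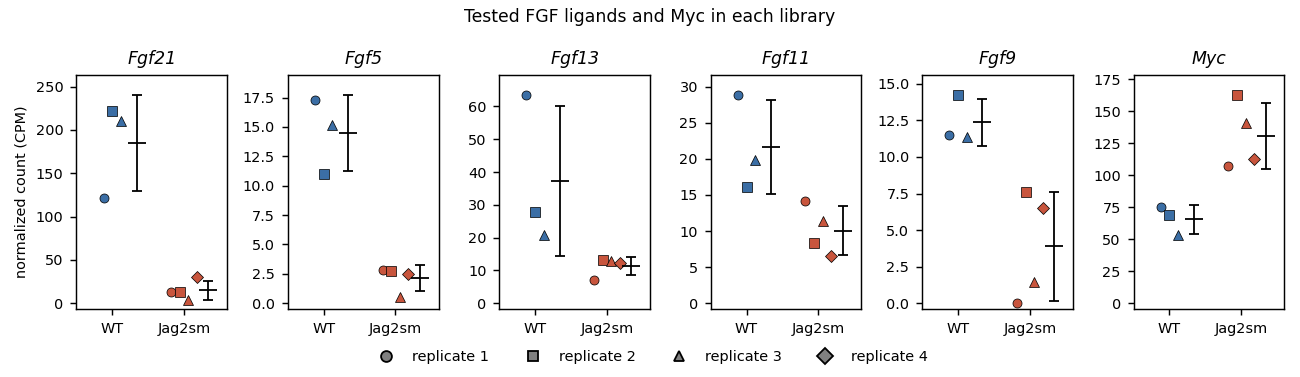
Normalized counts (CPM, linear axis) of the 5 tested genes of the FGF ligand list and of Myc in each library, with the mean and SD of each group. Fgf11 and Fgf13 encode intracellular homologues. Fgf21 lies between 121 and 222 CPM in WT and between 3.45 and 30.2 CPM in Jag2sm, and Myc lies higher in all 4 Jag2sm libraries.

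Among 18 genes of FGF receptors, co-receptors, heparan sulfate proteoglycans and FGF-binding proteins, 10 were tested and 0 passed, with 5 positive and 5 negative values and a median log2 fold change of -0.16. This median had no steady sign: it was 0.20, 0.18 and 0.09 without WT replicates 1, 2 and 3, 0.0047 with library size alone and -0.46 with at least 10 counts in every library. The proteoglycans with most reads were Hspg2 (perlecan), with log2 fold change -0.93 (edgeR adjusted p = 0.239), and Sdc4, a satellite cell syndecan, with 0.32 (adjusted p = 0.485). Sdc2 had 1.45 (adjusted p = 0.0891) with every Jag2sm library above every WT library, and Sdc3 had 0.97 (adjusted p = 0.0871). With the replicate block Sdc2 passed, at 1.56 and adjusted p = 0.0383. Fgfr2 and Fgfr3 had 6 and 11 reads in WT and 24 and 9 in Jag2sm and were not tested, against 120 and 172 reads of Fgfr1 and Fgfr4 in WT and 334 and 151 in Jag2sm.

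Among 25 genes of the RAS-ERK cascade, 21 were tested and 0 passed, with 16 negative and 5 positive values and a median of -0.19. Over all genes tested 54.0% were positive. The MEK kinase genes Map2k2 and Map2k1 had log2 fold changes of -0.29 (edgeR adjusted p = 0.530) and -0.46 (adjusted p = 0.380). Rasa1, a RAS GTPase-activating protein, had 0.74 (adjusted p = 0.237).

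Of 22 feedback and target genes of ERK, 7 of them in the set above, 20 were tested, and 1 rose, Myc, with 0 lower, a count near the share of 6.26% called over all genes. Its level was 74.9, 68.5 and 53.1 CPM in WT and 107, 162, 141 and 112 CPM in Jag2sm, and every Jag2sm library lay above every WT library (log2 fold change 1.04 ± 0.236 (SE), edgeR adjusted p = 0.0270). MYC drives cell growth and proliferation. With the replicate block its adjusted p was 0.0602, and without WT replicate 2, WT replicate 3 or Jag2sm replicate 2 it was 0.0871, 0.165 and 0.0881.

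Of the 20 tested targets, 15 had positive log2 fold changes, with a median of 0.37, against 54.0% positive and a median of 0.05 over all genes tested. The 5 negative ones were Spry1, Spry2, Spry4, Egr1 and Dusp9. For Fosl1, Spred3, Dusp5, Dusp7 and Ier3 the Jag2sm libraries alone met the read filter and the WT libraries alone did not. Their positive sign, and with it the count of 15 and the median, was partly set by the filter. Dusp9 also met the filter through Jag2sm alone, and its value was negative. Ccnd1, which encodes cyclin D1, had 40.4, 131 and 120 CPM in WT and 305, 248, 216 and 183 CPM in Jag2sm (log2 fold change 1.17, edgeR adjusted p = 0.0622). Egr1 had -0.15 (adjusted p = 0.913), Dusp4 0.21 (adjusted p = 0.810) and Phlda1 0.25 (adjusted p = 0.630). Summed over the 21 targets with a row in the files, the level was 1107 to 1148 CPM in WT and 1325 to 1672 CPM in Jag2sm. The 7 genes of the set within it overlapped, at 505 to 530 CPM in WT and 503 to 612 CPM in Jag2sm, and the other 14 did not, at 576 to 623 CPM and 750.0 to 1076 CPM. Without Myc and Ccnd1 the remaining 12 overlapped, at 423 to 461 CPM and 455 to 665 CPM. Myc and Ccnd1 are also controlled by many pathways besides FGF signalling.

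**Figure D4:**
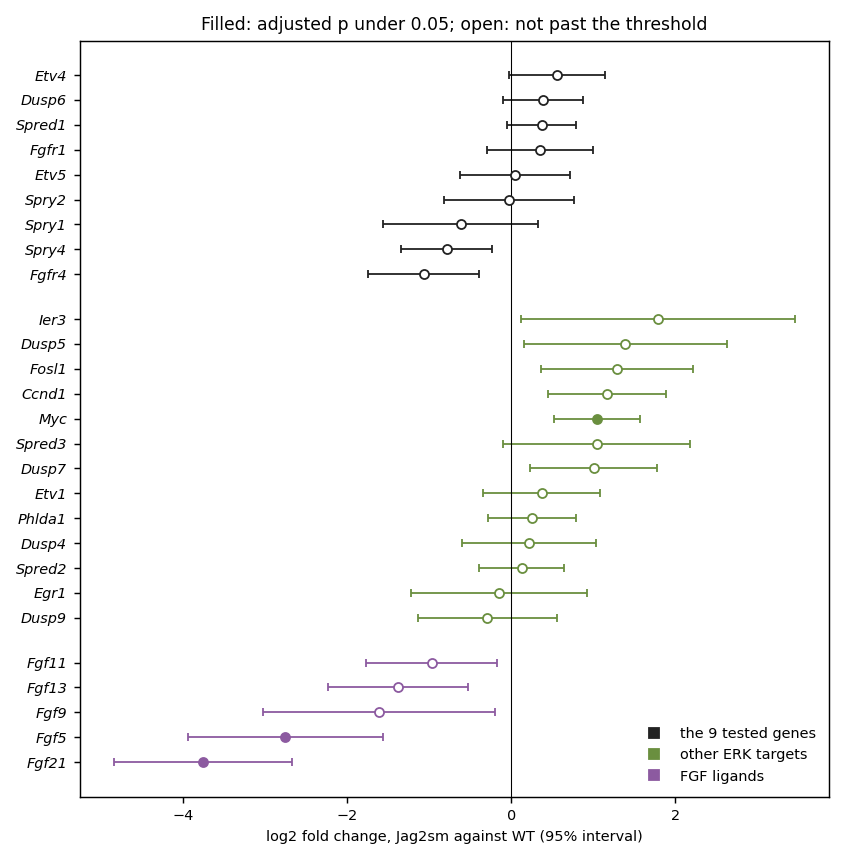
Log2 fold change of Jag2sm against WT with its 95% interval for the 9 tested genes, the other tested ERK targets and the tested genes of the FGF ligand list. Filled points passed an adjusted p of 0.05 by edgeR over all genes tested and open points did not. Filled points are Myc, Fgf5 and Fgf21.

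Of 8 other growth factor receptor genes, 6 were tested and 1 fell, against 4.84% called lower over all genes tested. This was Erbb3, a neuregulin receptor. It had 92.2, 66.6 and 83.5 CPM in WT and 11.3, 12.4, 3.94 and 19.6 CPM in Jag2sm (log2 fold change -2.78 ± 0.404 (SE), edgeR adjusted p = 0.00533), a call held in 13 of 13 alternatives. Its partner Erbb2 had 115, 25.9 and 26.6 CPM in WT and 9.85 to 14.1 CPM in Jag2sm (-1.75, adjusted p = 0.0681). Igf1r had -0.05 (adjusted p = 0.973), Met, the HGF receptor, 0.74 (adjusted p = 0.141) and Egfr 1.31 (adjusted p = 0.0947). With the replicate block Erbb2 and Egfr also passed, at adjusted p of 0.0427 and 0.0298.

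**Figure D5:**
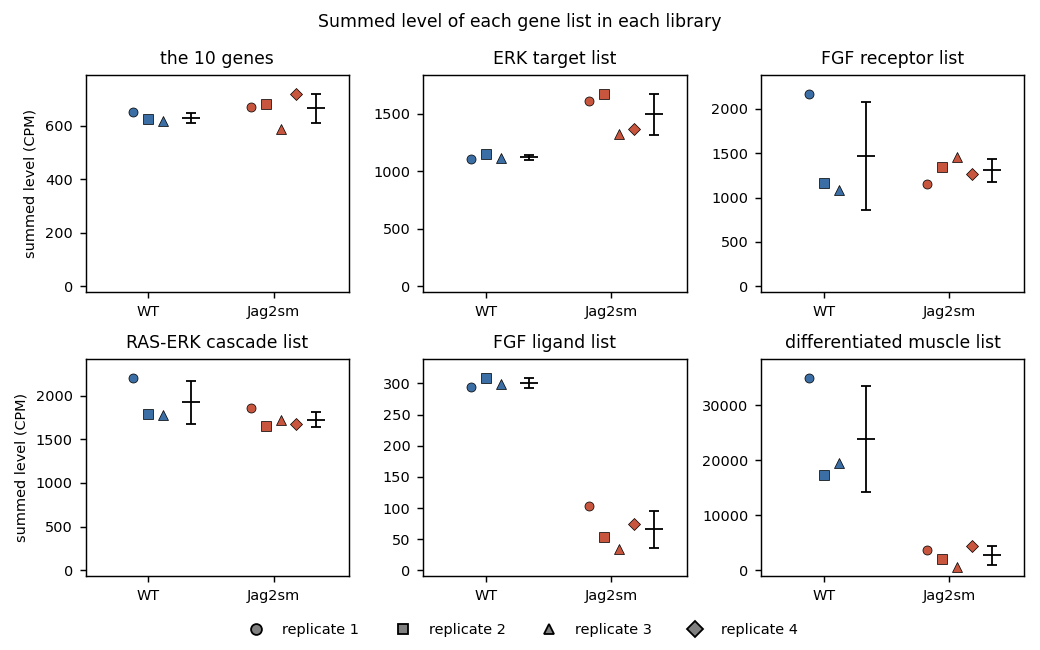
Summed normalized counts (CPM, linear axes that differ between panels) of the 10 genes, of 4 pathway lists and of the differentiated muscle list in each library, with the mean and SD of each group. The 10 genes overlap between WT and Jag2sm, while the FGF ligand and differentiated muscle lists are lower, and the ERK target list higher, in all 4 Jag2sm libraries.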

How the data were processed

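Gene counts were made by the authors and deposited as whole-number counts per library. Per the labels and methods, cDNA reads were aligned with minimap2 2.17 to GRCm39 and counted with HTSeq. The HTSeq version, annotation and strand setting are not given in the sources used here. The authors ran DESeq2 in R 4.3.0 on the counts, and their table of means, fold changes and p-values was not used.

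Identifiers were matched to GENCODE release M39 (56017 of 56748). The 10 genes, the wider lists and the markers were chosen with earlier results of these data known. Named genes were the 10, every gene of the wider lists with adjusted p under 0.05, up to 4 others a list with the highest mean CPM, and the 3 genes most correlated with each of the 2 tested genes of largest change. Marker genes were named beside results, and Fgfr2, Fgfr3, Fgf9, Fgf11, Fgf13, Kl, Klb and Dusp9 to complete a count. Fosl1, Spred3, Dusp5, Dusp7 and Ier3 were named to give a limit of the filter. A result that this rule names is not reported here.

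Counts were tested with edgeR 4.0.16 in R 4.3.3 (TMM, filterByExpr, quasi-likelihood test, Benjamini-Hochberg over 9489 genes), with no covariate, and CPM are on the TMM scale. Alternatives were DESeq2 1.42.0, limma-voom (limma 3.58.1), DESeq2 size factors, library size alone, no filter, at least 10 counts in every library, a replicate block, and each library left out. Library depth was 187834 to 1937581 reads on genes. The replicate numbers equal the batch numbers of the labels, which pair the libraries of batches 1 to 3. Within these pairs, deviations from the group means correlated only weakly, at r = 0.0740, 0.0144 and 0.0539 over 9489 genes. Libraries of the same number thus showed little shared deviation. The test was tested on simulated data.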

Additional observations from a re-analysis of the deposited data

How the results depend on the processing

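All counts of calls below are at an adjusted p of 0.05. Of the 9489 genes tested 594 passed, 1248 with no filter, 274 with at least 10 counts in every library, and 251 to 616 with 1 library left out, lowest without Jag2sm replicate 2. Library size alone moved the median of all genes to 0.21 and the share of calls that were lower to 61.4%, from 459 of 594. Among the 10 genes, limma-voom, no filter and leaving out WT replicate 1 each called 1, Fgfr4, and leaving out any other library called 0 (range 0 to 1). Ligand calls were 2, but 4 with no filter, 0 with 10 counts in every library (no ligand was left to test) and 1 to 2 with a library left out. Receptor-list calls were 0, but 1 with DESeq2, limma-voom, library size alone, 10 counts in every library and the replicate block, 6 with no filter and 0 to 1 with a library left out. Cascade calls were 0, but 1 with DESeq2 and limma-voom, in both Hras (named after its values were seen), and 0 to 1 with a library left out. ERK-target calls were 1, but 2 with DESeq2 and library size alone, 4 with no filter, 0 with the replicate block and 0 to 1 with a library left out. Other-receptor calls were 1, but 2 with DESeq2, 3 with no filter, 0 with 10 counts in every library, 3 with the replicate block and 1 to 2 with a library left out. The block changed no other call named here. The value of Spry2 turned positive with DESeq2 (0.029), library size alone (0.12), 10 counts in every library (0.086) and without WT replicates 2 (0.18) and 3 (0.02) and Jag2sm replicates 1 (0.03) and 3 (0.20; range with a library left out -0.30 to 0.20), and that of Etv5 turned negative with the replicate block (-0.0033) and without WT replicates 2 (-0.12) and 3 (-0.14) and Jag2sm replicate 2 (-0.14; range -0.14 to 0.30). The cause of these shifts was not tested. Depth limits Fgf2, and genes of few reads in WT replicate 1, where 3 counts stand for 17.3 CPM.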
